A study of Arabidopsis thaliana with 42 samples.

Results

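A group of JmjC-domain genes of Arabidopsis thaliana encodes enzymes that take methyl groups off lysine 27 of histone H3, and their transcripts were followed here by locus in RNA from whole seedlings. The 5 genes, of 34262 features in the expression table, are REF6 (AT3G48430), ELF6 (AT5G04240), JMJ13 (AT5G46910), JMJ30 (AT3G20810, listed in RefSeq as JMJD5) and JMJ32 (AT3G45880). They were chosen by name and reported activity, not by their levels, although earlier results of these data were known. Each of the 5 was in the table and passed the filter on low values. The seedlings were 14 days old, of the Col-0 ecotype, harvested at a time labelled ZT-6. Wild-type plants (WT) and plants of the single mutant line vil1-1 (vil1) were kept at 22 or 27 °C, and the arp6 mutant and the arp6vil1 double mutant were kept at 22 °C, which makes 6 groups of 2 libraries. Both long-day and short-day growth appear in the labels with no word on which applied to the RNA, and no allele is named for arp6. The study asked how the loss of VIL1 changes the transcriptome of warm-grown plants and that of arp6.

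Polycomb repressive complex 2 (PRC2) places trimethylation on lysine 27 of histone H3 (H3K27me3), a mark of silent genes, and the JmjC enzymes oxidise the methyl groups away, which lets such genes be expressed again. REF6 and its closest relative ELF6 are large enzymes that carry zinc fingers besides the JmjC domain, and those of REF6 bind DNA directly. JMJ13 has been described as a repressor of flowering that depends on temperature and day length, while JMJ30, whose transcript peaks in the evening under the circadian clock, acts with JMJ32 at the floral repressor gene FLC at raised temperature. VIL1 (VRN5 in RefSeq) is a PHD-finger partner of PRC2, and ARP6 belongs to the SWR1 chromatin remodeller, by which the variant histone H2A.Z enters nucleosomes.

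Levels are in RPKM, reads per kilobase of gene and per M reads, with mean ± SD over the 2 libraries of a group. Changes are differences in log2(RPKM + 1) from 1 limma fit to all 12 libraries, with a Benjamini-Hochberg adjusted p over 31454 features and a threshold of 0.05. Because of the added 1, they understate the change of low genes. The labels do not say that the 2 libraries of a group are separate cultures, so p-values measure the spread between libraries. Depth, worked out from the table, was 52.5 to 102.8 M reads per library. The arp6 and arp6vil1 libraries stood apart from the other 8. Features at 0 numbered 6651 and 6566 in the arp6 libraries against 104 to 194 in the others. Chloroplast genes held 17.0% and 14.9% of summed RPKM in the arp6vil1 libraries, against 4.07% to 7.64% elsewhere. The ARP6 transcript was at 0.398 and 0.207 RPKM in arp6 and 0.798 and 0.715 in arp6vil1, against 12.1 to 14.4 in WT and vil1. VRN5 was read in the vil1 libraries at 5.13 to 6.91 RPKM and in both arp6vil1 libraries at 2.49, so its level does not check the vil1 label by itself. The 4 shoot markers were RBCS1A, CAB1, CAB3 and RCA, with CAB1 and CAB3 most of their sum. They summed to 28192 and 28643 RPKM in WT at 22 °C and to 25770 and 24589 in vil1 at 22 °C. The sums lay lower, at 15181 to 19877, in each of the other 8 libraries. The 4 root markers, with PYK10 nearly all of their sum, were at 258 to 443 RPKM in WT and vil1 at 22 °C, 712 to 928 in WT and vil1 at 27 °C, 873 and 987 in arp6, and 257 and 233 in arp6vil1. Seed, anther and flower markers summed to at most 6.72, 3.08 and 12.6 RPKM. In RNA from whole seedlings, fewer cells of a type and less RNA per cell cannot be told apart.

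**Figure D1:**
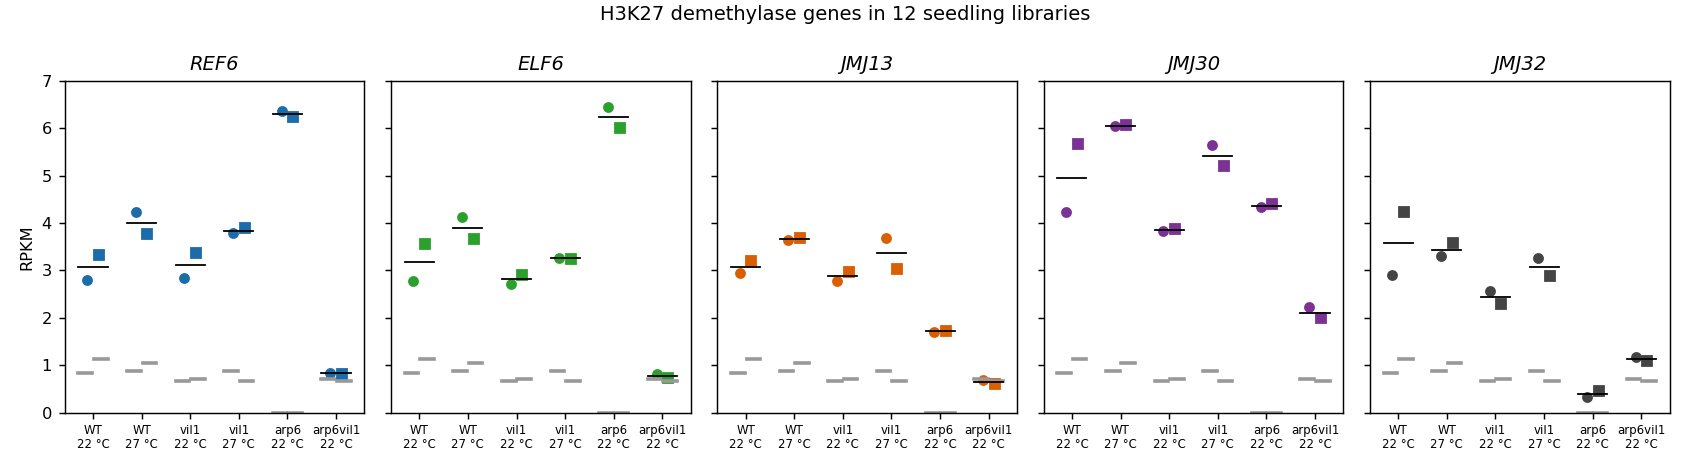
Level in RPKM (linear axis from 0) of REF6, ELF6, JMJ13, JMJ30 and JMJ32 in each of the 12 libraries, with circles for replicate 1, squares for replicate 2, a black bar at the group mean and a grey bar at each library's 10th percentile over nuclear protein-coding genes. REF6 and ELF6 are highest in arp6, at 6.02 to 6.45, JMJ32 is lowest there, at 0.333 and 0.453, and REF6, ELF6 and JMJ13 lie next to the grey bars in arp6vil1.

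In WT at 22 °C the 5 genes were transcribed at similar, modest levels, between the 40.9th and 55.1st percentile of nuclear protein-coding genes. JMJ30 was the highest, at 4.95 ± 1.01 RPKM, followed by JMJ32 at 3.57 ± 0.933. ELF6 (3.17 ± 0.544), JMJ13 (3.08 ± 0.185) and REF6 (3.06 ± 0.381) were close together. Among the 21 JmjC-domain genes of the genome listed here, JMJ30 ranked 3rd and REF6 ranked 10th. The sum over the 5 genes was 17.8 ± 3.06 RPKM, of which JMJ30 made up 27.7% and each of the others 17.3% to 19.9%.

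Warmth was associated with small differences in the 5 transcripts, and none passed the threshold in either genotype. The share of all features called was 20.6% for 27 against 22 °C in WT (16.9% higher) and 2.4% in vil1 (1.94% higher). Shoot marker sums were lower and root marker sums higher at 27 °C in both genotypes. RCA went against the shoot sum, at 1090 and 856 RPKM against 712 and 490 at 22 °C in WT, and 1207 and 1351 against 1153 and 1190 in vil1. PYK10 was higher at 27 °C in both genotypes, while COBL9, EXPA7 and SHR had overlapping readings in WT. In vil1, EXPA7 and SHR were higher too. The part of these markers in the values below was not tested. REF6, the enzyme with DNA-binding zinc fingers, was read at 2.79 and 3.33 RPKM at 22 °C in WT and at 4.24 and 3.76 at 27 °C. The means differed 1.31-fold, with a log2 change of 0.30 ± 0.10 (SE) and an adjusted p of 0.0692 by limma. JMJ30 stood at 4.23 and 5.66 RPKM at 22 °C and at 6.04 and 6.06 at 27 °C in WT. The gap from 5.66 to 6.04 RPKM was small beside the distance between the 2 cool libraries, and the change was 0.26 ± 0.11 (adjusted p = 0.152 by limma). ELF6 differed by 0.23 ± 0.11 (adjusted p = 0.173), JMJ13 by 0.20 ± 0.10 (adjusted p = 0.231) and JMJ32 by -0.029 ± 0.14 (adjusted p = 0.934). The median change of all features was 0.085, and that of the 5 genes was 0.23.

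In vil1 plants, JMJ30 differed most between temperatures. It was read at 3.83 and 3.88 RPKM at 22 °C and at 5.64 and 5.20 at 27 °C, a 1.41-fold difference (0.40 ± 0.11, 95% interval 0.15 to 0.66, adjusted p = 0.106 by limma). REF6 moved from 2.84 and 3.38 to 3.80 and 3.89 RPKM (0.24 ± 0.10, adjusted p = 0.283). The other 3 differed by 0.16 (ELF6), 0.17 (JMJ13) and 0.24 (JMJ32), with adjusted p of 0.413 to 0.507, against 0.11 for the median feature. Without adjustment, REF6 and JMJ30 had p under 0.05 in WT and again in vil1, as had 31.6% and 16.7% of all features. On reads recovered from RPKM, voom called 1 of the 5 in WT (REF6, adjusted p = 0.0268) and 0 in vil1. Rescaling each library to the same total of nuclear protein-coding RPKM called 4 of the 5 in WT (REF6, ELF6, JMJ13 and JMJ30, adjusted p 0.0166 to 0.0481), where 30% of all features were called (27.3% higher). Removing the trend of level with gene length left REF6 at -0.0033, ELF6 at -0.073 and JMJ13 at -0.10 in WT.

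The response to warmth was not shown to differ between vil1 and WT for any of the 5. The differences, vil1 minus WT, ran from -0.076 for ELF6 to 0.27 for JMJ32. Their 95% intervals were widest for JMJ32 (-0.16 to 0.71) and narrowest for JMJ13 (-0.35 to 0.29), with adjusted p of 0.606 to 0.968 by limma. Of all features, 0% passed for this difference, 12.3% had an unadjusted p under 0.05 (0 of the 5 genes), and voom also called 0 of the 5.

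At a fixed temperature, no difference between vil1 and WT seedlings in REF6, ELF6 or JMJ13 passed the threshold. The largest of these was that of ELF6 at 27 °C, read at 3.27 and 3.24 RPKM in vil1 against 4.12 and 3.66 in WT. The vil1 mutation was accompanied at 22 °C by lower readings of JMJ30, 3.83 and 3.88 against 4.23 and 5.66 RPKM, and of JMJ32, 2.57 and 2.30 against 2.91 and 4.23 RPKM. Neither difference passed the threshold (JMJ30 -0.28 ± 0.11, adjusted p = 0.138, and JMJ32 -0.40 ± 0.14, adjusted p = 0.102, limma). The features called were 4.1% of all at 22 °C and 0.922% at 27 °C. The median feature stood at -0.16 and -0.12 in the same comparisons. At 27 °C the 5 differences lay between -0.20 (ELF6) and -0.044 (REF6), with adjusted p of 0.417 to 0.844. Unadjusted p was under 0.05 for JMJ30 and JMJ32 at 22 °C and for 0 of the 5 at 27 °C, and voom called 0 at either temperature. Without the first WT library at 22 °C, both passed (JMJ30 -0.46, adjusted p = 0.0141; JMJ32 -0.61, adjusted p = 0.0114), in a setting that called 28.4% of all features (19.7% lower), so these calls depend on 1 library.

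The arp6 mutant separated the 5 genes into pairs that moved in opposite directions. REF6 and ELF6 rose, JMJ13 and JMJ32 fell, and JMJ30 did not pass the test. In this comparison 82.3% of all features were called, 20.6% higher and 61.8% lower, and the median feature stood at -0.64, so 4 of 5 called genes is a share close to the background. Root marker sums were above WT at 22 °C in arp6 (873 and 987 against 410 and 258 RPKM) and shoot marker sums below it (16776 and 16225 against 28192 and 28643). The members of these sums did not all move alike. CAB1 and CAB3 were lower in arp6, while RBCS1A (4417 and 4296 against 4376 and 4160 RPKM) and RCA (691 and 667 against 712 and 490) were near WT. PYK10 and COBL9 were higher, EXPA7 lay between the WT readings, and SHR was lower (4.44 and 3.61 against 5.07 and 4.98). In arp6vil1 the root sums, 257 and 233 RPKM, were below those of arp6, and the part of these markers in the changes of the 5 genes was not tested.

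REF6 was read at 6.37 and 6.24 RPKM in arp6, above each of the other 10 libraries. Its mean there, 6.31 ± 0.0907, was 2.06-fold that of WT at 22 °C (0.85 ± 0.10, adjusted p = 3.44e-05 by limma). ELF6, whose loss is known to bring early flowering, was read at 2.79 and 3.56 RPKM in WT at 22 °C and at 6.45 and 6.02 in arp6, a 1.97-fold rise (0.80 ± 0.11, adjusted p = 6.69e-05). The arp6 libraries of both genes also exceeded WT at 27 °C, by 0.55 (adjusted p = 0.000684) and 0.57 (adjusted p = 0.000728), in a comparison that called 79.9% of all features. Levels of longer genes were higher relative to shorter ones in arp6 than in WT (Spearman rho of the change with gene span 0.5348 over 25456 nuclear protein-coding genes, a description). REF6 and ELF6 span 5536 and 5839 bases. With the length trend removed from each library, the rises were 0.34 (adjusted p = 0.00247) for REF6 and 0.24 (adjusted p = 0.0208) for ELF6.

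In the double mutant the same pair were at their lowest. REF6 was at 0.839 and 0.822 RPKM and ELF6 at 0.823 and 0.728 RPKM in arp6vil1. These readings were below each of the other 10 libraries for both genes, and 7.59-fold (REF6) and 8.03-fold (ELF6) below arp6. The changes from arp6 to arp6vil1 were -2.0 ± 0.10 (adjusted p = 6.46e-08) and -2.03 ± 0.11 (adjusted p = 7.26e-08). In that comparison 79.1% of features were called, 41.1% higher and 38% lower, with a median of 0.12. Against WT, with which arp6 and arp6vil1 were both compared, the falls were -1.15 ± 0.10 and -1.23 ± 0.11 (adjusted p = 5.47e-06 and 4.72e-06). Against vil1 they were -1.16 ± 0.10 and -1.10 ± 0.11 (adjusted p = 4.74e-06 and 8.51e-06). The size of the falls depended on the processing. Over 26 alternative settings, those against WT ran from -1.87 to -0.30 for REF6 and from -2.02 to -0.38 for ELF6. Levels of longer genes were lower relative to shorter ones in arp6vil1 than in arp6 (Spearman rho of the change with gene span -0.5829, a description).

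JMJ13 fell in both mutants that lack ARP6. It was read at 2.95 and 3.21 RPKM in WT at 22 °C, 1.70 and 1.72 in arp6, and 0.685 and 0.606 in arp6vil1. The 3 groups were ordered from WT down to arp6vil1. The fall in arp6 was 1.80-fold (-0.59 ± 0.10, adjusted p = 0.000347 by limma), near the median feature at -0.64. Quantile normalization put this difference at 0.024 (adjusted p = 0.813) and subtraction of background at -0.19 (adjusted p = 0.126). In arp6vil1 the level was 4.77-fold below WT (-1.31 ± 0.10, adjusted p = 2.39e-06) and 2.65-fold below arp6 (-0.72 ± 0.10, adjusted p = 8.97e-05). With the length trend removed, arp6vil1 lay above arp6 instead, by 0.49 (adjusted p = 0.000507), so the order of the double and single mutant for JMJ13, which spans 5040 bases, turned with that setting.

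JMJ30 was the least changed of the 5 in arp6. Its levels there, 4.34 and 4.40 RPKM, fell between the 2 WT libraries at 22 °C, 4.23 and 5.66 (-0.14 ± 0.11, 95% interval -0.39 to 0.12, adjusted p = 0.283 by limma). Centring each library on its median feature gave a rise of 0.24 (adjusted p = 0.0242), and leaving out the first WT library at 22 °C a fall of -0.31 (adjusted p = 0.0154), so the direction depends on the scaling and on 1 library. In arp6vil1 it was read at 2.23 and 1.99 RPKM, below each of the other 10 libraries and 2.34-fold below WT (-0.93 ± 0.11, adjusted p = 3.86e-05). That fall was no longer past the threshold with quantile normalization (-0.10, adjusted p = 0.391), median centring (-0.080, adjusted p = 0.426) or the length trend removed (-0.22, adjusted p = 0.0663).

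JMJ32, the partner of JMJ30 at FLC, moved most in arp6. It was read at 2.91 and 4.23 RPKM in WT at 22 °C and at 0.333 and 0.453 in arp6, which are 49 and 64 reads. The arp6 mean was 9.10-fold below WT (-1.70 ± 0.14, 95% interval -2.01 to -1.40, adjusted p = 2.46e-06 by limma). Over 26 alternative settings this fall ran from -3.148 to -0.665. JMJ32 spans 2695 bases, and levels of shorter genes were lower relative to longer ones in arp6 than in WT. The double mutant lay between WT and arp6, at 1.17 and 1.08 RPKM. It was 3.19-fold below WT (-1.09 ± 0.14, adjusted p = 4.52e-05) and 2.86-fold above arp6 (0.61 ± 0.14, adjusted p = 0.00217). JMJ32 was thereby the 1 gene of the 5 that was higher in arp6vil1 than in arp6. This last difference was 0.040 (adjusted p = 0.848) after subtraction of each library's background and 0.16 (adjusted p = 0.209) with quantile normalization. Against WT, all 5 fell in arp6vil1, where 66.1% of features were called (61.2% lower) and the median feature stood at -0.54. Against vil1 all 5 fell too, with JMJ30 at -0.64 and JMJ32 at -0.69, in a comparison that called 58% of features (50.8% lower) with a median of -0.40.

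**Figure D2:**
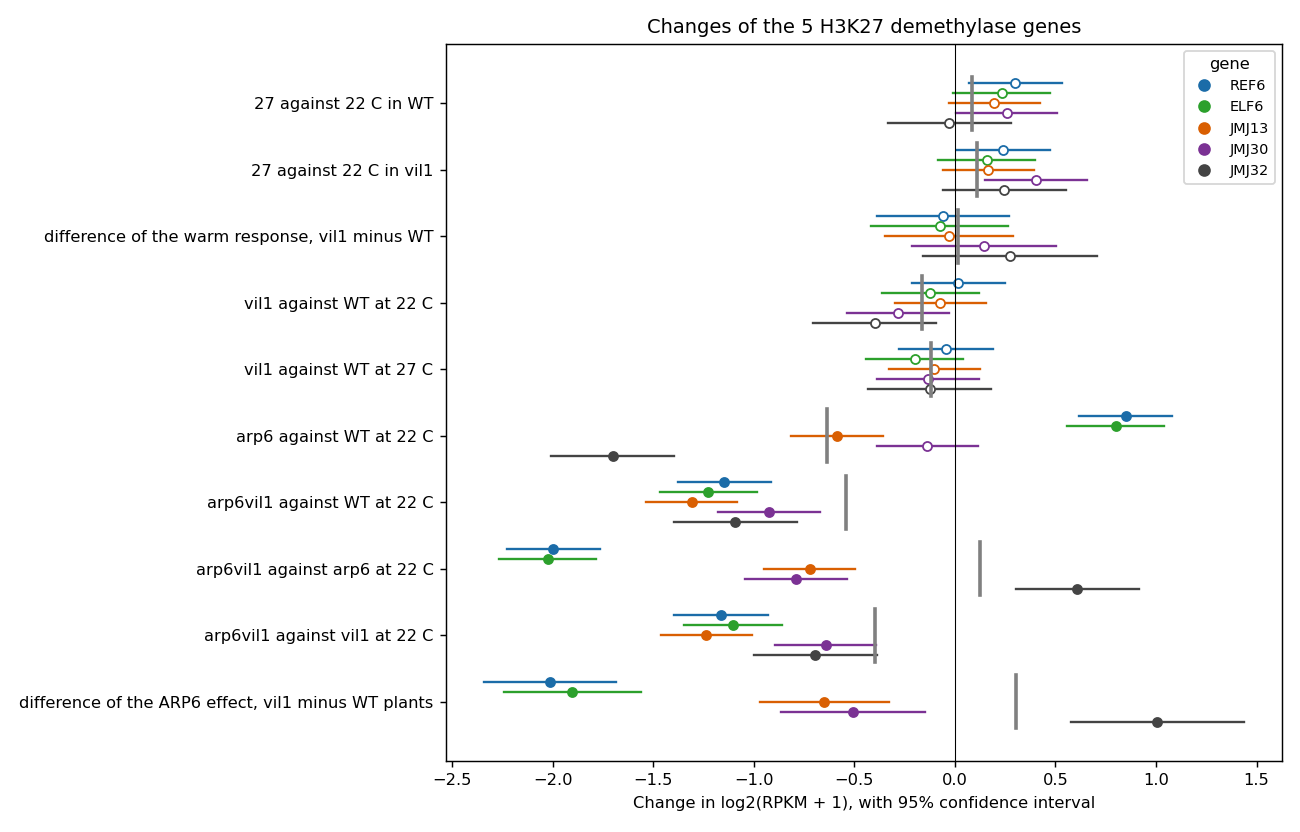
Change in log2(RPKM + 1) of the 5 genes (x axis) in each of the 10 comparisons (y axis), with 95% confidence intervals, filled points for adjusted p under 0.05 and a grey tick at the median of all features tested. Points of the temperature and vil1 comparisons are open and lie near 0, while those with arp6 spread from -2.03 to 1.01.

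The effect of losing ARP6 differed between vil1 and WT plants for each of the 5 genes. The difference, vil1 minus WT plants, was -2.01 ± 0.15 for REF6 and -1.90 ± 0.15 for ELF6, with adjusted p of 1.24e-06 and 2.16e-06 by limma. JMJ13 followed at -0.65 ± 0.14 (adjusted p = 0.00225) and JMJ30 at -0.51 ± 0.16 (adjusted p = 0.0154), while JMJ32 went the other way at 1.01 ± 0.19 (adjusted p = 0.000953). Of all features 75.2% passed for this difference, 42.5% higher and 32.7% lower, and the median was 0.30. JMJ30 no longer passed without the second arp6vil1 library (-0.45, adjusted p = 0.0552), and JMJ13 turned to 0.60 (adjusted p = 0.00154) with the length trend removed.

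Ordering the 6 groups by mean level gave 3 patterns. For REF6 and ELF6 the order began with arp6, then WT at 27 °C and vil1 at 27 °C. The step from arp6 to WT at 27 °C and the last step down to arp6vil1 passed the test, and the steps among the 4 WT and vil1 groups did not (adjusted p 0.283 to 0.92). JMJ13 and JMJ32 had the WT and vil1 groups on top and both groups lacking ARP6 at the bottom, in opposite order. The order of arp6 and arp6vil1 turned for JMJ13 with the length trend removed. For JMJ32 the step between them did not pass with background subtracted. For JMJ13, arp6 lay below vil1 at 22 °C (adjusted p = 0.00113), where 76% of features were called between these 2 groups. JMJ30 had arp6 in the midst of the WT and vil1 groups, and its single step past the threshold was the last one, from vil1 at 22 °C down to arp6vil1 (adjusted p = 0.000534).

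The composition of the set shifted with these changes. REF6 and ELF6 kept a ratio of 0.938 to 1.20 in the 12 libraries, although both were highest in arp6 and lowest in arp6vil1. Each made up 32.0% to 33.6% of the summed RPKM of the 5 genes in the arp6 libraries, against 13.9% to 21.9% in the other 10. JMJ32 made up 1.74% and 2.40% in arp6 against 14.9% to 21.2%, and its ratio to JMJ30 was 0.0767 and 0.103 there against 0.523 to 0.748. The sum itself was 19.2 and 18.8 RPKM in arp6, within the 14.7 to 21.3 RPKM of the WT and vil1 libraries. It was 5.74 and 5.23 in arp6vil1, where JMJ30 held 38.8% and 38.1%.

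Low levels in the double mutant came close to those of the least expressed genes. The 10th percentile of nuclear protein-coding genes was 0.705 and 0.677 RPKM in the arp6vil1 libraries, and REF6, ELF6 and JMJ13 lay at 0.895 to 1.21 times that level. JMJ30 was at 3.16 and 2.94 times and JMJ32 at 1.65 and 1.59 times. In the WT and vil1 libraries the 5 genes were at 2.82 to 7.89 times a 10th percentile of 0.660 to 1.14 RPKM. The 10th percentile was 0 in both arp6 libraries, which goes with their many features at 0. The part of this background in the levels of REF6, ELF6 and JMJ13 in arp6vil1 was not tested. After its subtraction JMJ13 was at 0 in both arp6vil1 libraries and REF6 at 0.134 and 0.145 RPKM.

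Annotated features lie inside 2 of the genes. AT5G04238, a protein-coding feature of 195 bases, lies within ELF6, and its reads equalled 12.01% to 20.8% of those of ELF6 in WT and vil1, 2.39% and 2.73% in arp6 and 3.43% and 3.61% in arp6vil1. AT5G06885, a lncRNA of 268 bases, lies within JMJ13, with 18.6% to 24.0% in WT and vil1, 5.92% and 11.1% in arp6 and 10.2% and 12.8% in arp6vil1. Whether the counting used strand is not given in the sources used here, so reads of these features and of the genes around them cannot be told apart. Without their reads, the rise of ELF6 in arp6 was 0.98 (adjusted p = 1.29e-05) and the fall of JMJ13 -0.39 (adjusted p = 0.00482). JMJ32 overlaps its 2 neighbours by 13 and 32 bases, and REF6 and JMJ30 overlap no other feature.

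**Figure D3:**
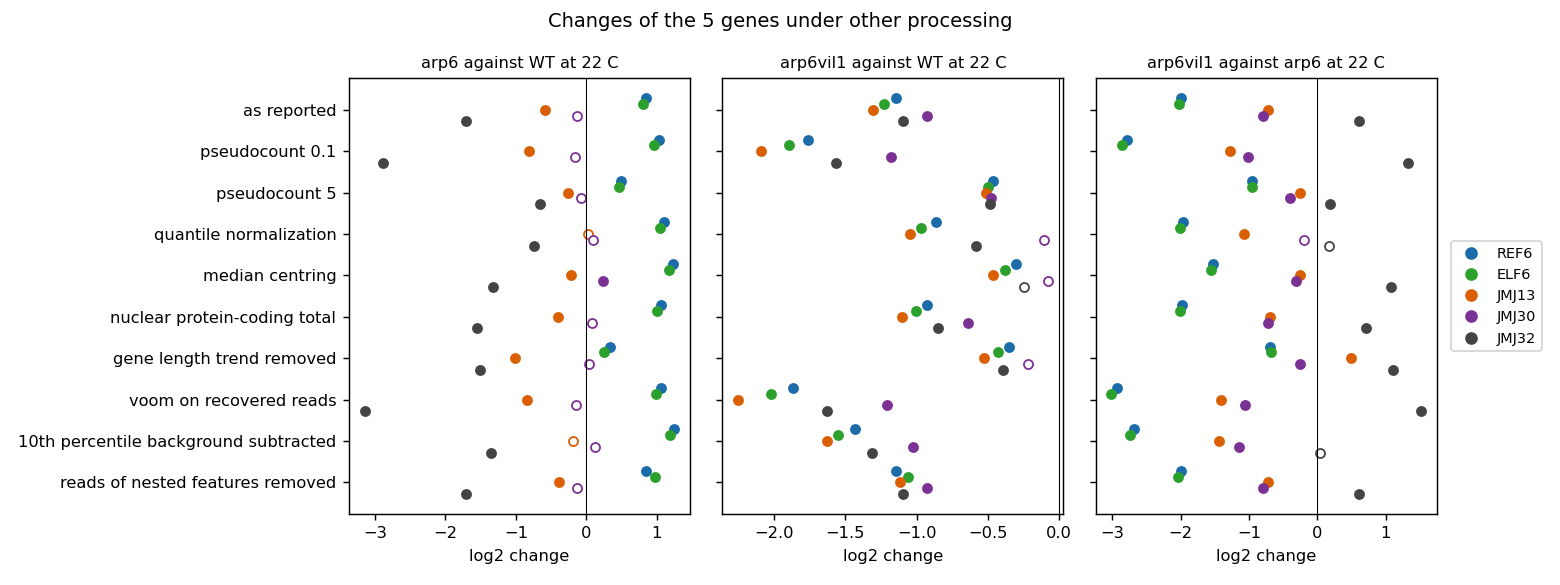
Log2 change (x axis) of the 5 genes under the reported and 9 other ways of processing (y axis), for arp6 against WT, arp6vil1 against WT and arp6vil1 against arp6, filled where the adjusted p is under 0.05. REF6 and ELF6 stay to the right of 0 in arp6 and to the left in arp6vil1 throughout, while JMJ13 and JMJ30 cross 0 in some rows.

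The 16 other JmjC-domain genes, which include histone H3 lysine 4 and lysine 9 demethylases, gave a wider view of the family. In arp6 against WT, 10 rose, 3 fell and 3 did not pass the test, with a median of 0.44 against -0.64 for all features, of which 20.6% rose and 61.8% fell. JMJ14, a demethylase of H3 lysine 4, rose most, from 2.92 and 3.0 RPKM to 10.7 and 9.46, which is 3.41-fold (1.48 ± 0.11, adjusted p = 1.3e-06 by limma). AT1G62310 (0.94 ± 0.11) and AT4G00990 (0.87 ± 0.096) also rose, by amounts close to those of REF6 and ELF6. JMJ15 (-0.88 ± 0.14), JMJ20 (-0.42 ± 0.093) and AT5G19840 (-1.21 ± 0.11) fell, AT5G19840 from 2.24 and 2.68 RPKM to 0.488 and 0.498. JMJ15 was at 0.90 and 1.24 RPKM in WT at 22 °C, near the 10th percentile of 0.831 and 1.14 RPKM, which was 0 in arp6. Over 26 alternative settings its change ran from -3.14 to 0.27, and that of JMJ20 from -0.507 to -0.043. With the length trend removed, 6 rose and 6 fell with a median of 0.016, and with quantile normalization 14 rose and 1 fell. In arp6vil1 against WT, 0 rose and 15 fell, where 61.2% of all features fell. The remaining gene, JMJ15, differed by -0.024 (adjusted p = 0.891). That count was 1 rise and 2 falls with median centring and 1 rise and 3 falls with the length trend removed. From arp6 to arp6vil1, 14 fell and 1 rose (JMJ15, 0.86 ± 0.14), against 38% and 41.1% of all features, and JMJ14 fell by 2.28 on the log2 scale. JMJ15 had 26 and 34 reads in arp6, and the part of background in its rise was not tested.

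**Figure D4:**
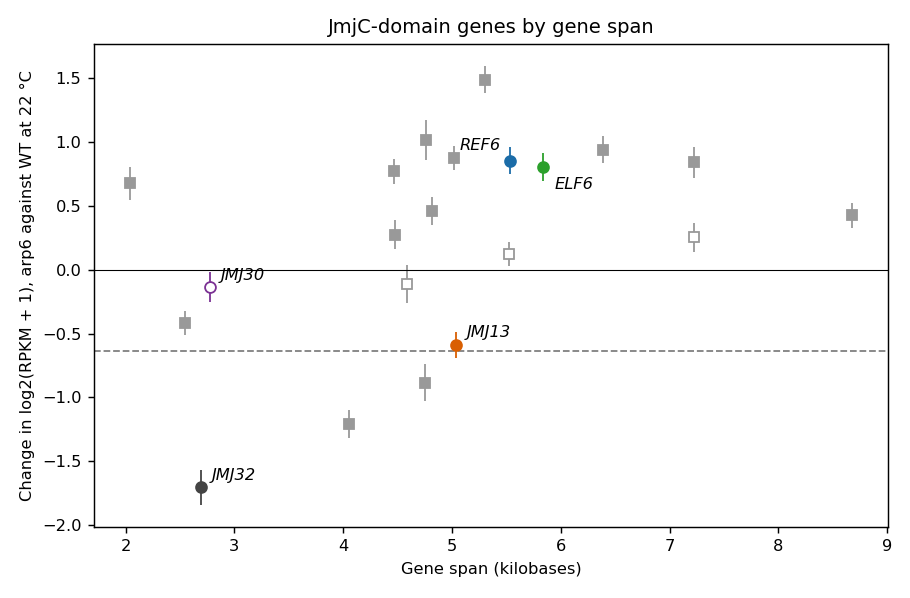
Change in log2(RPKM + 1) from WT to arp6 at 22 °C (y axis, bars are SE) against gene span in kilobases (x axis) for the 5 H3K27 demethylase genes (coloured circles) and the 16 other JmjC-domain genes (grey squares), with filled symbols for adjusted p under 0.05 and a dashed line at the median of all features, -0.64. REF6 and ELF6 lie among the long genes that rose, and JMJ32, at 2695 bases and -1.70, lies lowest.

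At 27 °C in WT 4 of these 16 relatives rose and 0 fell, where 20.6% of all features were called. They were AT2G38950 (0.46 ± 0.096), JMJ22 (0.61 ± 0.13), JMJ14 (0.49 ± 0.11) and AT1G62310 (0.38 ± 0.11), with adjusted p of 0.0089 to 0.0307 by limma. In vil1 0 of the 16 passed by limma (1 at an unadjusted p under 0.05, 0 by voom), and vil1 against WT gave 0 at 22 °C (1 unadjusted) and 0 at 27 °C (2 unadjusted), with 0 by voom in both. The difference of the warm response between vil1 and WT passed for 0 of the 16 (1 unadjusted, 0 by voom). The WT count was 1 with the length trend removed, 1 with median centring, 0 from the WT libraries alone and 9 with the nuclear protein-coding total.

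Among the 12 genes that encode PRC2 subunits and the VEL proteins that bind PRC2, 10 passed the filter on low values, and MEA and VEL2 did not. In WT, 4 of the 10 rose at 27 °C and 0 fell, where 16.9% of all features rose. The 4 were VEL1, a relative of VIL1 (0.80 ± 0.13, adjusted p = 0.00428), FIE, VRN5 and VRN2. The call of VEL1 held in each of 28 alternative settings. Those of FIE, VRN5 and VRN2 were lost in 8 of 27, 11 of 28 and 11 of 27. In vil1 0 passed by limma (3 unadjusted, 0 by voom), and the difference between the genotypes passed for 0 of 10 (1 unadjusted, 0 by voom). In arp6, 6 rose, among them the methyltransferase gene SWN (0.87 ± 0.11, adjusted p = 3.59e-05), and 2 fell, FIS2 (-0.93 ± 0.14) and VIN3 (-1.01 ± 0.16). In WT at 22 °C, FIS2 was at 0.917 and 1.13 RPKM and VIN3 at 1.29 ± 0.296. The 10th percentile was 0.831 and 1.14 RPKM there and 0 in arp6. FIS2 had 13 and 14 reads in arp6 and VIN3 had 23 and 21. Over 26 alternative settings each fall was called in 24. The change ran from -4.018 to 0.235 for FIS2, called higher in 1, and from -3.226 to 0.166 for VIN3. The part of background in these falls was not tested. Of all features, 20.6% rose and 61.8% fell in arp6. Among the 6 rises, that of CLF (adjusted p = 0.0492 by limma) held in 10 of 26 alternative settings, where its change ran from -0.227 to 0.668. SWN was read at 2.10 and 2.59 RPKM in WT at 22 °C and at 5.28 and 4.91 in arp6, so this enzyme gene, which writes the mark, and REF6 and ELF6, which encode enzymes that remove it, were higher in the same libraries. In arp6vil1 against WT 8 of 10 fell and 0 rose, where 61.2% of all features fell. With median centring this became 2 rises and 2 falls. CLF, the other methyltransferase gene of vegetative tissue, was at -1.16 ± 0.10 and VRN5 at -1.14 ± 0.084. VRN5 is VIL1 itself, the gene that the vil1 mutation affects, and the part of the mutation in its fall was not tested.

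The 14 genes reported elsewhere as targets of these demethylases moved in both directions. Their direction does not follow from a list of targets, since several of the 5 enzymes may act at 1 gene. At 27 °C, 5 of the 14 rose and 1 fell in WT, and 2 rose and 0 fell in vil1, where 20.6% (WT) and 2.4% (vil1) of all features were called. AT1G53540, a small heat shock protein gene, rose 7.98-fold in WT, from 3.87 and 4.27 RPKM to 24.4 and 40.6 (2.68 ± 0.21, adjusted p = 0.000185 by limma). In vil1 it rose 12.96-fold, from 4.66 and 4.09 to 54.3 and 59.1 RPKM (3.42 ± 0.21, adjusted p = 7e-05). The difference between these rises was 0.74 (adjusted p = 0.376). ATHSP22.0, another heat shock gene, rose by 0.92 ± 0.24 in WT (adjusted p = 0.0214) and 1.08 ± 0.24 in vil1 (adjusted p = 0.0445). These calls were lost in 6 and 15 of 27 alternative settings. FLC, the floral repressor at which JMJ30 and JMJ32 act, stood at 4.47 and 4.75 RPKM in WT at 22 °C and 4.16 and 4.90 at 27 °C (-0.024, adjusted p = 0.918), and in vil1 at 4.69 and 4.72 and at 5.09 and 4.97 RPKM (0.080, adjusted p = 0.721).

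In arp6, 10 of the 14 fell and 2 rose, against 61.8% and 20.6% of all features, a share of falls near the background. FLC fell to 0.187 and 0.233 RPKM (-2.21 ± 0.096, adjusted p = 6.82e-08), and TCH4, a xyloglucan-modifying enzyme gene, fell 9.37-fold (-3.19 ± 0.16, adjusted p = 1.81e-07). EIN2, the central ethylene signalling gene (1.94 ± 0.16), and PIN7, an auxin carrier gene (1.03 ± 0.087), rose. In arp6vil1, FLC was back up to 2.47 and 2.25 RPKM, above arp6 by 1.47 ± 0.096 (adjusted p = 2.35e-07) and below WT by -0.74 ± 0.096 (adjusted p = 5.57e-05). FLC thus had the same order of WT, arp6vil1 and arp6 as JMJ32. That order was not particular to these genes. Of all features, 41.1% were called higher in arp6vil1 than in arp6, and LHY and RVE8 had the same order of means. For JMJ32 the step from arp6 to arp6vil1 did not pass with background subtracted. For FLC the change from WT to arp6vil1 ran from -0.967 to 0.117 over 26 alternative settings, and its call was lost in 3. A relation between FLC and JMJ32 was not tested. Against WT, 8 of the 14 fell in arp6vil1, where 61.2% of all features fell, and 1 rose (CUC1, 0.30). With median centring this became 3 falls and 8 rises.

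The list of 14 circadian clock genes was set beside JMJ30 because that gene is clock-controlled. At 27 °C in WT 12 rose and 0 fell, with a median of 0.75 against 0.085 for all features, and 16.9% of all features rose, while JMJ30 differed by 0.26 and did not pass. TOC1 (0.74 ± 0.085, adjusted p = 0.000832), ELF3 (0.74 ± 0.11) and ELF4 (0.96 ± 0.14) act in the evening and night part of the clock. In vil1, where 1.94% of all features rose, 4 rose, ELF4 (1.41 ± 0.14), TOC1 (0.70 ± 0.085), COR27 (1.37 ± 0.18) and PCL1 (0.60 ± 0.10). The difference of the 2 responses passed for 0 of 14 by limma (7 unadjusted, 0 by voom). The WT count was 5 with the length trend removed and 6 with median centring. The calls of TOC1 and ELF4 held in each of 28 alternative settings in both genotypes. In arp6, GI (2.51 ± 0.18) and PRR5 (1.68 ± 0.097), which are late-day genes, were among 9 that rose, and the morning genes LHY (-1.36 ± 0.12) and RVE8 (-1.86 ± 0.11) among 3 that fell, while JMJ30 did not pass. Of all features, 20.6% rose and 61.8% fell in arp6 and 61.2% fell in arp6vil1. In arp6vil1 12 of 14 fell against WT, which was 1 rise and 0 falls with median centring.

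The features most like each gene over the 12 libraries were found by Pearson correlation of log2(RPKM + 1) among 5605 candidates with a symbol and a mean of 5 RPKM or more. REF6 was most like IQD24 (r = 0.9959), NFD5 and TPR7, and ELF6 most like MYB4 (r = 0.995), GAUT14 and ALMT9. JMJ13 was most like ARAD2 (r = 0.9967), AFP2 and CRR28, JMJ30 most like HY5 (r = 0.9931), EMB2219 and WRKY17, and JMJ32 most like EXO70H6 (r = 0.9919), SETH1 and CIPK5. These 12 libraries include those of arp6, which had the lowest depths and many features at 0, and those of arp6vil1, which had a high chloroplast share. Over the 8 WT and vil1 libraries the closest were PRMT4A for REF6 (r = 0.9787), CIP1 for ELF6 (0.979), EMP1 for JMJ13 (0.9697), NAC027 for JMJ30 (0.9857) and pPLAIIIbeta for JMJ32 (0.9864). REF6 and ELF6 had r = 0.9917 with each other over 12 libraries and 0.8271 over 8. REF6 and JMJ32 had -0.0351 over 12 and 0.3246 over 8.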

How the data were processed

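Total RNA of 12 seedling libraries was sequenced. The 30 ChIP-seq samples of the series were not analysed here. The authors deposited 1 table of RPKM values, already scaled to depth and gene length, for 34262 features. Per the submitters' processing notes, FastQC, HISAT2, Bowtie2, SAMtools, bedtools and edgeR were used with TAIR10. Versions, the role of each tool and strand handling are not given in the sources used here. RPKM divides by the whole gene span, introns included, which lowers the value of genes with long introns.

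Whole reads were recovered for 32536 features with a RefSeq length (TAIR10.1 names and spans): 99.948% to 99.957% of values came within 0.02 reads of a whole number. Differences were tested with limma 3.58.1 (R 4.3.3) on log2(RPKM + 1), with 1 mean per group, a variance trend and 10 contrasts. A feature was tested if 2 or more libraries had at least 1 RPKM. The procedure was tested on simulated data. The threshold was an adjusted p under 0.05 with no minimum change. Permutation tests were not used, since 2 libraries per group allow few distinct labellings.

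The 5 genes, the 4 comparison lists and the marker genes were chosen with earlier results of these data known. Besides the 5 genes, the text names from each list up to 4 genes with the smallest adjusted p among those past the threshold in a comparison, FLC, ATHSP22.0 (HSP22), AT1G53540 (HSP17.6C), VRN5 and ARP6, and the 3 features most like each of the 5. JMJ15, JMJ20, CUC1, EIN2, PIN7, MEA, VEL2 and other genes that complete a count of 5 or fewer were named after their values were seen. Alternatives were pseudocounts of 0.1 and 5, no filter or a mean of 5 RPKM, quantile normalization, median centring, a nuclear protein-coding total, the trend of level with gene length taken out (lowess span 0.3), voom on recovered reads, no variance trend, fewer groups, a replicate block and leaving out each library. Subtraction of the 10th percentile, nuclear protein-coding genes alone and removal of nested features were added after seeing the data.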

Additional observations from a re-analysis of the deposited data

Results flagged for a closer look

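The effect of losing ARP6 differed between vil1 and WT plants for each of the 5 genes, by limma's test of the difference itself, and 75.2% of all features passed the same test. REF6 differed by -2.01 ± 0.15 (SE) on the log2 scale (adjusted p = 1.24e-06), higher in arp6 than in WT in 2 of 2 libraries and lower in arp6vil1 than in vil1 in 2 of 2. ELF6 differed by -1.90 ± 0.15 (adjusted p = 2.16e-06), with the same directions in the same libraries. JMJ13 differed by -0.65 ± 0.14 (adjusted p = 0.00225) and was lower without ARP6 in both backgrounds. JMJ30 differed by -0.51 ± 0.16 (adjusted p = 0.0154), with arp6 between the WT libraries and arp6vil1 below vil1. JMJ32 differed by 1.01 ± 0.19 (adjusted p = 0.000953), being lower without ARP6 in both backgrounds and more so in WT plants. The arp6 libraries also had 6651 and 6566 features at 0 and the arp6vil1 libraries a chloroplast share of 17.0% and 14.9%. The part of these in the differences was not tested.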

How the results depend on the processing

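As reported, 0 of the 5 genes passed in the 5 comparisons of temperature or vil1, 4 in arp6 against WT, and 5 in each of the other 4. For 27 against 22 °C in WT the count was 4 with the nuclear protein-coding total, and 1 each with voom on recovered reads, with background subtracted and with nuclear protein-coding genes alone. In arp6vil1 it was 3 against WT with median centring, 3 against arp6 with quantile normalization, and 3 against vil1 with median centring or the length trend removed. Leaving out 1 library gave 0 to 1 for warmth in WT (1 without the second WT library at 22 °C, JMJ30), 0 to 1 for warmth in vil1 (JMJ30 without either WT library at 22 °C) and 0 to 2 for vil1 against WT at 22 °C. Signs turned for values that did not pass as reported as follows. With the length trend removed, warmth in WT gave REF6 -0.0033, ELF6 -0.073 and JMJ13 -0.10, its difference between genotypes 0.090, 0.075 and 0.12 for the same genes, vil1 against WT REF6 -0.028 at 22 °C and 0.062 at 27 °C and JMJ13 0.0065 at 27 °C, and arp6 against WT JMJ30 0.030. With quantile normalization, vil1 against WT gave ELF6 0.036 and JMJ13 0.10 at 22 °C and REF6 0.11, JMJ13 0.062 and JMJ32 0.036 at 27 °C, and arp6 against WT JMJ30 0.090. With median centring, vil1 against WT gave JMJ13 0.040 at 22 °C and REF6 0.11, JMJ13 0.049, JMJ30 0.016 and JMJ32 0.025 at 27 °C, the difference of the warm response JMJ13 0.0088, and arp6 against WT JMJ30 0.24. Background subtraction gave REF6 0.015 (vil1 against WT, 27 °C), JMJ13 0.046 (22 °C) and JMJ30 0.12 (arp6 against WT), and the nuclear protein-coding total JMJ30 0.075 (arp6 against WT) and JMJ32 0.064 (warmth in WT). Of values past the threshold as reported, JMJ13 turned to 0.024 with quantile normalization (arp6 against WT) and to 0.49 and 0.60 with the length trend removed (arp6vil1 against arp6 and the difference of the ARP6 effect). JMJ30 in arp6vil1 against vil1 turned to 0.11, 0.090 and 0.021 with quantile normalization, median centring and the length trend removed, JMJ30 in the difference of the ARP6 effect to 0.020 with quantile normalization, and JMJ32 in arp6vil1 against vil1 to 0.039 with median centring. The cause was not tested. Where a group is left with 1 library, that library is assumed to vary like the other groups. Leaving out 1 library gave ranges across 0 for the difference of the warm response in REF6 (-0.16 to 0.035), ELF6 (-0.21 to 0.057), JMJ13 (-0.14 to 0.080) and JMJ30 (-0.028 to 0.32), for vil1 against WT at 22 °C in REF6 (-0.080 to 0.11) and ELF6 (-0.26 to 0.011) and at 27 °C in REF6 (-0.11 to 0.024) and JMJ13 (-0.21 to 0.0080), for JMJ30 in arp6 against WT (-0.31 to 0.038) and for JMJ32 with warmth in WT (-0.24 to 0.18). REF6 and ELF6 in the 5 comparisons with arp6 or arp6vil1 kept direction and call in every alternative run. Replicate numbers did not pair the libraries (correlations of same-numbered deviations -0.249 to 0.220), and with the replicate number as a block the counts were 0, 4 and 5 as reported, comparison by comparison. A mean of 5 RPKM or more left none of the 5 genes to test.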
